A study of Mus musculus with 12 samples.

Results

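Neurons of medial entorhinal cortex (MEC) and of its lateral neighbour (LEC) were compared in heterozygous control animals, using the control channel of every dual-dye array in the series. The control channel gave 12 of the 24 channel readings in all, and the other 12 came from mutants. MEC and LEC each had 3 control replicates, and a replicate was the mean of its 2 dye-swapped arrays. All mice were C57BL/6 females aged 2 months. The controls carried 1 intact copy of Naglu (Naglu+/-), which encodes a lysosomal enzyme of heparan sulfate breakdown, so no wild-type animal enters the comparison. Mutants (Naglu-/-) were their littermates and shared each array. Per the labels, 500 neuronal cell bodies per region were picked by laser from 12 µm sections stained with cresyl violet, and the RNA was linearly amplified before dyes were added. Whether a MEC and a LEC replicate with equal numbers derive from 1 mouse is not given in the labels.

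The entorhinal cortex is the gateway between neocortex and hippocampus. Its medial division holds grid cells and is known for spatial coding, while the lateral division receives more olfactory, perirhinal and object-related input. Both send axons from the superficial layers to the hippocampus, from reelin-rich stellate or fan cells and from calbindin- and Wfs1-positive pyramidal cells. Regional identity in cortex is set by transcription factors and is carried into the adult through cell adhesion molecules, ion channels and neuropeptides.

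Values are quantile-normalised log2 intensities, and a difference is MEC minus LEC on that scale, so that 1 unit is a doubling of intensity. Intensities of different probes cannot be compared with each other. Control replicates of the same region correlated at 0.960 to 0.985 in MEC and 0.982 to 0.983 in LEC. Replicates of different regions correlated at 0.941 to 0.967, all over the 10087 tested genes without a dropped replicate. All MEC arrays were scanned on 1 day and all LEC arrays on another, so region and scan day cannot be told apart in any result. Median Cy3 signal was 67.1 to 77.9 on MEC arrays and 79.3 to 92.4 on LEC arrays, and background-subtracted negative control spots read 28.1 to 39.7 and 47.1 to 51.1. Arrays were matched to replicates and dyes through the authors' value table. In replicate 2 of both regions that table opposes the labelled dyes, so which channel is the control is not settled there.

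The comparison asked which transcripts differ between neurons of the neighbouring divisions in unaffected control animals. Of 10227 genes tested, 506 passed limma at an adjusted p under 0.05 (4.95% of genes tested). MEC was the higher region for 264 of them (2.58%) and LEC for 242 (2.37%). A gap of at least 2-fold was found in 48 (0.469%), of which 30 were higher in MEC and 18 in LEC. Differences were mostly small on this scale: the median size was 0.55 among called genes and 0.11 over all genes. With Agilent's processed signals 167 of 191 called genes were at least 2-fold apart. Sizes and folds given here therefore hold for this processing only. The 3 MEC and 3 LEC values did not overlap in 493 of the 506, against 27.7% of all genes. Calls were made on these same values, so the higher share follows from the selection. Genes with a dropped replicate were not counted as non-overlapping. Differences of all 506 had the same sign in the Cy3 and in the Cy5 readings. The replicate means behind the calls are averages of those readings, so this is no separate check. Just inside the threshold stood Supt4a at 0.52 and Plat at −0.38, and just outside it Aplp1 at −0.60 and Stat5b at −0.33.

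Both scaling and single replicates moved these counts. Dividing each channel by its 75th percentile in place of quantile normalisation shifted the median of all genes from −0.02 to −0.11. It gave 112 genes higher in MEC and 2336 higher in LEC, a share of 4.58% higher in MEC against 52.2%. Of the 506 genes, 481 kept their sign under that scaling. Leaving out a replicate gave 38 calls without MEC replicate 1, 248 without MEC replicate 2, 1108 without MEC replicate 3, 144 without LEC replicate 1, 171 without LEC replicate 2 and 230 without LEC replicate 3. Without replicate 2 of both regions 90 genes passed, 29 higher in MEC and 61 in LEC. The 12 highest and 12 lowest differences among called, named and non-overlapping genes (24 leading genes) and the called members of the gene lists came to 75 genes, of which 18 also passed without each single replicate: Cacna2d3, Cacnb4, Cbr3, Fndc5, Gpc3, Ier5, Lef1, Lgi2, Lrrtm3, Mcm6, Myh7, Nefl, Neurod6, Ntng1, Plxdc1, Slc24a2, Vat1l and Wfs1. The others lost their call at least without MEC replicate 1.

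**Figure D1:**
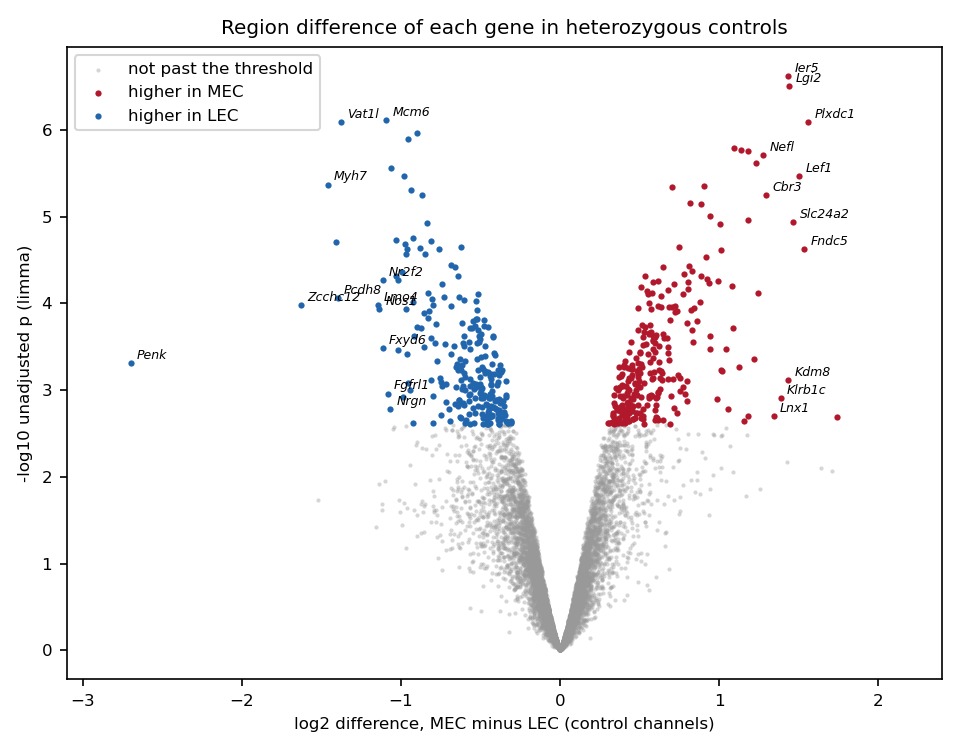
Each point is 1 of 10227 genes, with the log2 difference between MEC and LEC control channels on the x axis and −log10 of limma's unadjusted p on the y axis; coloured points have an adjusted p under 0.05. Of the 24 leading genes, 12 on each side, 23 carry names, among them Penk at −2.70 and Plxdc1 at 1.56.

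Transcription factors of regional identity differed in both directions. Of 31 measured members of that list, 2 were called higher in MEC and 4 in LEC (19.4%, against 4.95% of all genes). The list median was −0.05 against −0.02 over all genes. Lists were chosen with earlier results of these data known, and their shares of called genes were not tested. Lef1, the DNA-binding partner of beta-catenin in Wnt signalling, read 7.56, 7.55 and 7.99 in MEC and 6.29, 6.03 and 6.26 in LEC. Regions were more than 1 unit apart at their nearest values, and the difference was 1.50 (SE 0.13, limma adjusted p = 0.00229), or 2.84-fold. Its probe lies at chr3:131213273-131213332 of build mm8 and was well above background in all control readings. Neurod6, a basic helix-loop-helix factor of cortical pyramidal neurons, read 7.58, 7.43 and 7.28 in MEC and 6.32, 6.05 and 6.23 in LEC. Every MEC value lay above every LEC value (difference 1.23, SE 0.11, limma adjusted p = 0.00205).

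Nr2f2, which encodes the nuclear receptor COUP-TFII of caudal cortex and interneurons, was on the other side at 7.10, 7.45 and 6.84 in MEC and 8.19, 8.22 and 8.32 in LEC. LEC replicates were tightly grouped and all higher (difference −1.11, SE 0.14, limma adjusted p = 0.00952), and the gene's other kept probe read −0.62. Lmo4, a LIM-only protein that bridges transcription complexes in cortex, read 8.33, 8.05 and 8.42 in MEC and 9.60, 9.59 and 9.05 in LEC. It was higher in all LEC replicates (difference −1.15, SE 0.16, limma adjusted p = 0.012), although its other kept probe read −0.09. Nfib, a nuclear factor I gene, and Foxp1, a forkhead factor of projection neurons, were also higher in LEC at −0.60 and −0.34. Nr4a2, an orphan nuclear receptor of deep-layer cortical neurons, and Satb1, a chromatin organiser, read 0.75 and 0.28 without passing (limma adjusted p = 0.079 and 0.0915).

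The start regions of Lef1 and Nr2f2, transcription factors that differed in opposite directions, and of Wfs1, a layer marker that differed with Lef1, are shown because Lef1 protein acts through a short DNA motif. Each runs from 250 bases before to 50 bases after the annotated start, 5′ to 3′ on the gene's strand, from RefSeq on GRCm38.p6. The motif CTTTGAT, searched on both strands (ATCAAAG in reverse), is in capitals where present. For Lef1 the first of its 4 listed starts was taken.
Lef1 promoter (chr3:131110047-131110346, plus strand): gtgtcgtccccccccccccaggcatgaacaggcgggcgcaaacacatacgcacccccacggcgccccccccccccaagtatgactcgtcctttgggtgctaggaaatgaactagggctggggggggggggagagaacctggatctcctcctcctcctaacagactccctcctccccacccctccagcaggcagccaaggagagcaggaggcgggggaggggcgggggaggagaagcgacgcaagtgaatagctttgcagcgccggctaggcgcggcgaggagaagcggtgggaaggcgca
Wfs1 promoter (chr5:36988933-36989232, minus strand): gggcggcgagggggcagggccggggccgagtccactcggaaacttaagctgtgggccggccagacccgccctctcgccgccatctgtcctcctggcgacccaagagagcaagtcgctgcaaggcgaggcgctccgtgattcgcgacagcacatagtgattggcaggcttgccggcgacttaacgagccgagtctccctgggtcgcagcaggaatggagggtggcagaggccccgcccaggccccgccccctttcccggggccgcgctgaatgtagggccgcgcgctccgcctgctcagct
Nr2f2 promoter (chr7:70366697-70366996, minus strand): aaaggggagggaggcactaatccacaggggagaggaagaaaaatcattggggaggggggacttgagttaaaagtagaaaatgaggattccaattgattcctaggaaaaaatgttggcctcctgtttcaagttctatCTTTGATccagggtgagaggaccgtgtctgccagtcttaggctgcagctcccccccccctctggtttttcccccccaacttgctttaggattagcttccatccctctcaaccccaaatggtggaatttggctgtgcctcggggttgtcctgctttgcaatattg
Of these windows only that of Nr2f2 held the motif, once. It was found in 3.72% of 27025 RefSeq promoters and in 2.45% of 7176 promoters of genes tested. Among genes higher in MEC it was in 5 of 196 (2.55%), and among genes higher in LEC in 10 of 180 (5.56%). A match says only that these letters occur in the window.

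Layer markers of the entorhinal cortex differed in both directions. Of 22 measured members, 2 were called higher in MEC and 2 in LEC (18.2%, against 4.95% of all genes). Wfs1, an endoplasmic reticulum membrane protein that marks pyramidal cells of superficial entorhinal cortex, read 9.38, 9.32 and 9.45 in MEC and 8.23, 8.21 and 8.45 in LEC. MEC values spanned a narrow band above all LEC values (difference 1.09, SE 0.09, limma adjusted p = 0.00181, or 2.13-fold). Calb1, the calcium buffer calbindin that is often used to mark the same pyramidal class, went the other way, at 8.35, 8.26 and 8.12 in MEC and 9.09, 8.82 and 9.64 in LEC. Groups did not overlap (difference −0.94, SE 0.19, limma adjusted p = 0.0331). Crym, a thyroid hormone binding protein of cortical neurons, was higher in LEC by the same order, at −0.95 (limma adjusted p = 0.0309). Reln, the secreted glycoprotein reelin of stellate and fan cells, read 8.33, 8.56 and 7.92 in MEC and 7.56, 7.59 and 7.97 in LEC. Its groups overlapped, and its difference of 0.56 did not pass (limma adjusted p = 0.107).

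Wnt and retinoid signalling genes included Lef1. Among 20 measured members, 2 were called higher in MEC and 1 in LEC (15%, against 4.95% of all genes). Wnt10a, a secreted Wnt ligand, was 0.64 higher in MEC (SE 0.09, limma adjusted p = 0.012). Rspo2, a secreted amplifier of Wnt signalling, read 8.29, 7.99 and 7.59 in MEC and 7.25, 6.50 and 7.23 in LEC. Its difference of 0.97 missed the threshold (limma adjusted p = 0.0561), although the groups did not overlap. Rxrg, a retinoid X receptor, was higher in LEC at −0.59 (limma adjusted p = 0.0485).

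Among neuropeptide genes, Penk had the widest gap of any called gene. Penk encodes proenkephalin, the precursor of the opioid enkephalins, and read 6.82, 8.72 and 6.90 in MEC and 10.05, 9.80 and 10.69 in LEC. LEC was higher in every replicate, but MEC replicate 2 stood nearly 2 units above the other MEC replicates. The difference was −2.70 (SE 0.48, limma adjusted p = 0.0252), or 6.48-fold higher in LEC, at a probe on chr4:4060735-4060794 of mm8. Without replicate 2 it was −3.51 (limma adjusted p = 0.0109). The call was lost without MEC replicate 1, LEC replicate 1 or LEC replicate 3, with an adjusted p of at most 0.12. Of 22 measured neuropeptide and processing genes, 1 was called in each region (9.09%, against 4.95% of all genes). Penk was the 1 called in LEC. Pcsk2, the prohormone convertase 2 that cuts such precursors, was the 1 called in MEC (0.45, limma adjusted p = 0.0267). Under 75th percentile scaling Pcsk2 read −0.04. Grp, the gastrin-releasing peptide gene, read 5.82, 6.05 and 5.85 in MEC and 7.24, 6.30 and 7.32 in LEC. It did not pass (difference −1.04, limma adjusted p = 0.0513) and was well above background in 2 of 6 MEC readings.

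Synapse organisers and adhesion molecules differed gene by gene. Of 32 measured members, 2 were called higher in MEC and 2 in LEC (12.5%, against 4.95% of all genes). Lgi2, a secreted leucine-rich repeat protein of a family that bridges ADAM receptors at synapses, read 9.85, 10.10 and 9.79 in MEC and 8.45, 8.52 and 8.45 in LEC. LEC replicates were within 0.1 units of each other and far below MEC (difference 1.44, SE 0.09, limma adjusted p = 0.00159, or 2.71-fold), and the gene's other kept probe read 0.49. Cadm2, an immunoglobulin-type adhesion molecule of axons, was also higher in MEC at 0.59 (limma adjusted p = 0.0185).

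Lrrtm3, a postsynaptic leucine-rich repeat protein, was higher in LEC, with 6.76, 7.00 and 6.89 in MEC and 7.77, 7.71 and 7.76 in LEC (difference −0.86, SE 0.08, limma adjusted p = 0.00274). C1ql3, a secreted C1q-like synaptic protein, was higher in LEC at −0.81 (limma adjusted p = 0.0172). Cbln1, the secreted synapse organiser cerebellin 1, read 9.35, 9.53 and 9.15 in MEC and 7.90, 6.34 and 8.67 in LEC. LEC values were widely spread, and the difference of 1.71 did not pass (limma adjusted p = 0.0903). Of 17 measured cadherins and protocadherins, 1 was called on each side (11.8%, against 4.95% of all genes). Pcdh8, an activity-regulated protocadherin of dendrites, read 6.60, 7.16 and 6.53 in MEC and 7.83, 8.37 and 8.27 in LEC. LEC was the higher region in all replicates (difference −1.40, SE 0.19, limma adjusted p = 0.0111). Cdh20, a type II cadherin, was higher in MEC at 0.50 (limma adjusted p = 0.0296), and Pcdh9, a delta protocadherin, read 1.01 without passing (limma adjusted p = 0.0563), with its other kept probe at 0.07.

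Axon guidance genes showed ligands and receptors on both sides. Of 38 measured members, 3 were called higher in each region (15.8%, against 4.95% of all genes). Among receptors, Epha4 read 7.57, 7.98 and 7.57 in MEC and 6.87, 6.67 and 6.76 in LEC. This Eph receptor, which takes both A and B type ephrins, did not overlap between regions (difference 0.94, SE 0.12, limma adjusted p = 0.00952). Ephb1, a receptor for B type ephrins, was higher in MEC at 0.50 (limma adjusted p = 0.0273), and Efnb1, one of those ligands, was higher in LEC at −0.52 (limma adjusted p = 0.0267). Ephb1 was well above background in 2 of 6 LEC readings and Efnb1 in 3 of 6 MEC readings.

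Nrp2, the neuropilin receptor of class 3 semaphorins, read 6.71, 6.99 and 6.79 in MEC and 7.98, 7.71 and 7.67 in LEC. It was higher in each LEC replicate (difference −0.96, SE 0.11, limma adjusted p = 0.00614). Ntng1, the membrane-anchored netrin G1 of axons, read 7.80, 7.79 and 7.59 in MEC and 8.62, 8.61 and 8.46 in LEC. LEC was again higher throughout (difference −0.84, SE 0.09, limma adjusted p = 0.00446), although the gene's other kept probe read −0.16. Ntng1 also sits on the list of neighbouring-region markers, as a gene strong in thalamus. It was the only called gene of the 7 measured there (14.3%, against 4.95% of all genes). Sema7a, a membrane-anchored semaphorin, was higher in MEC at 1.01 (SE 0.19, limma adjusted p = 0.0267).

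**Figure D2:**
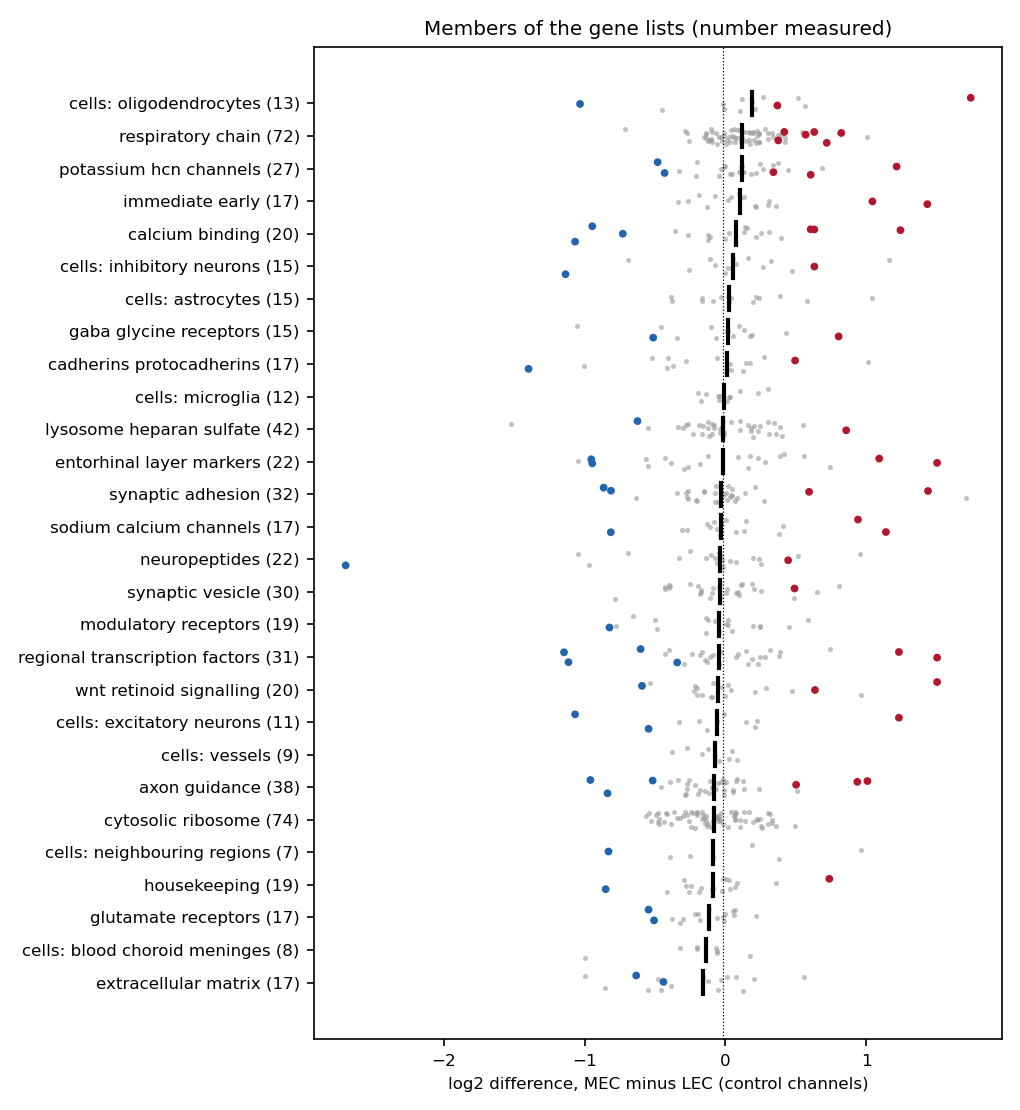
Each row is 1 gene list with its number of measured members; points are genes at their log2 difference between MEC and LEC, red and blue where the adjusted p was under 0.05, black bars are list medians and the dotted line is the median of all genes (−0.02). Called genes lie on both sides in most lists, while the 6 called respiratory chain genes are all higher in MEC; vertical scatter within a row carries no meaning.

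Of 17 measured sodium and calcium channel genes, 2 were called higher in MEC and 1 in LEC (17.6%, against 4.95% of all genes). All 3 encode auxiliary subunits. Cacna2d3, an alpha2delta subunit that carries calcium channels to the surface, read 7.48, 7.60 and 7.34 in MEC and 6.39, 6.21 and 6.39 in LEC. Regions were nearly 1 unit apart at their closest (difference 1.14, SE 0.09, limma adjusted p = 0.00181). Cacnb4, a cytoplasmic beta subunit of those channels, read 9.46, 9.64 and 9.46 in MEC and 8.54, 8.45 and 8.73 in LEC. It too was higher in all MEC replicates (difference 0.94, SE 0.10, limma adjusted p = 0.00415). Scn3b, a beta subunit of sodium channels, was higher in LEC at −0.81 (SE 0.16, limma adjusted p = 0.0294).

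Among 27 measured potassium and HCN channel genes, 18 lay above 0. Calls were 3 higher in MEC and 2 in LEC (18.5%, against 4.95% of all genes). All 3 in MEC belong to the A-type Kv4 complex. Kcnd2, the pore-forming Kv4.2 subunit, read 8.90, 8.97 and 8.69 in MEC and 7.98 and 7.30 in LEC, where replicate 3 was left out for an outlier spot. Its difference was 1.22 (SE 0.20, limma adjusted p = 0.0236). Kcnip4, a calcium-sensing partner of Kv4 channels, was higher at 0.61 (limma adjusted p = 0.0399), and Dpp10, their transmembrane partner, at 0.34 (limma adjusted p = 0.0356). Under 75th percentile scaling 11 of the list's 27 genes lay above 0, but 17 lay above that scaling's median of all genes (−0.11). The list median was −0.04. List members passing there were 0 in MEC and 4 in LEC, against 112 and 2336 of 10227 genes. The 3 Kv4 complex genes read 0.78, 0.26 and 0.02. Without replicate 2, 0 list members passed in either region, against 90 of 10227 genes. Kcnf1, a silent modifier subunit, was higher in LEC at −0.48 (limma adjusted p = 0.0157). Kcna5, a Kv1 channel, was well above background in 0 of 6 MEC and 6 of 6 LEC readings, so it passed the filter through LEC alone. LEC was at least 1.28-fold higher in Aquantile-scaled channels with dim readings raised to a floor. The quantile-normalised fit gave −0.43 (limma adjusted p = 0.0311).

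Of 15 measured GABA and glycine receptor genes, 1 was called in each region (13.3%, against 4.95% of all genes). Gabra2, the alpha2 subunit of GABA receptors, read 7.18, 7.19 and 7.16 in MEC and 7.65, 7.66 and 7.76 in LEC. It was higher in LEC, with little spread in either region (difference −0.51, SE 0.07, limma adjusted p = 0.0107), but the gene's other kept probe read −0.05. Gabra4, the alpha4 subunit, read −1.05 without passing (limma adjusted p = 0.0531).

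Of 17 measured glutamate receptor genes 13 lay below 0, with a list median of −0.12 against −0.02 over all genes. Above that median of all genes lay 7 of the 17. The 2 that passed (11.8%, against 4.95% of all genes) were both higher in LEC. With Agilent's processed signals or without replicate 2, 1 passed, and 6 under 75th percentile scaling, all in LEC. In these 3 settings 97, 61 and 2336 of all 10227 genes were called higher in LEC. Gria1, the GluA1 subunit of AMPA receptors, read 9.29, 9.55 and 9.41 in MEC and 10.07, 9.73 and 10.08 in LEC, which did not overlap (difference −0.55, SE 0.12, limma adjusted p = 0.0416). Grm5, the metabotropic receptor mGluR5, was higher in LEC at −0.51 (limma adjusted p = 0.0172). Among 19 modulatory receptors the histamine receptor gene Hrh3 alone passed (5.26%, against 4.95% of all genes). Hrh3 read 8.04, 8.17 and 7.99 in MEC and 8.99, 8.62 and 9.07 in LEC. All LEC values were higher (difference −0.83, SE 0.12, limma adjusted p = 0.0143). Adra2a, an adrenergic receptor, read −0.78 without passing (limma adjusted p = 0.0684), and its other kept probes −0.004 and −0.53.

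Of 20 measured calcium-binding protein genes 6 passed (30%, against 4.95% of all genes), with 3 higher in each region. The count was 3 with Agilent's processed signals and 1 without replicate 2. Over all 10227 genes the counts in these settings were 191 and 90, against 506. Vsnl1, the neuronal calcium sensor visinin-like 1, read 8.17, 8.21 and 7.84 in MEC and 7.00, 6.46 and 7.03 in LEC. MEC was clear of LEC (difference 1.24, SE 0.17, limma adjusted p = 0.0107), and the other kept probe read 0.22. Ncald, the related sensor neurocalcin delta, was higher in LEC at −0.73 (SE 0.10, limma adjusted p = 0.0111), with −0.27 at its other kept probe. Nrgn, the calmodulin-binding postsynaptic protein neurogranin, read 10.37, 10.42 and 9.65 in MEC and 11.13, 10.93 and 11.58 in LEC. LEC was higher throughout (difference −1.07, SE 0.23, limma adjusted p = 0.0419). Of 30 synaptic vesicle genes 1 passed (3.33%, against 4.95% of all genes). It was Snap25, a SNARE protein of transmitter release, 0.49 higher in MEC (limma adjusted p = 0.0248). Under 75th percentile scaling Snap25 read 0.01. Synpr, the vesicle protein synaptoporin, read −0.78 without passing (limma adjusted p = 0.0561).

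Immediate early genes are switched on by recent activity. Of 17 measured, 12 lay above 0 and 2 passed (11.8%, against 4.95% of all genes), both higher in MEC. Under 75th percentile scaling 7 of 17 lay above 0 and 8 above that scaling's median of all genes. List calls were then 2 in MEC and 3 in LEC, against 112 and 2336 of 10227 genes. Ier5 read 8.42, 8.53 and 8.69 in MEC and 7.10, 7.19 and 7.04 in LEC, and had the smallest p of all genes tested (difference 1.43, SE 0.09, limma adjusted p = 0.00159, or 2.70-fold). The gap between regions was many times the spread within either. Arc, a synaptic regulator of AMPA receptor uptake, read 8.86, 8.39 and 8.38 in MEC and 7.41, 7.83 and 7.26 in LEC. Each MEC value was above each LEC value (difference 1.04, SE 0.18, limma adjusted p = 0.02). Fos and Egr3, activity-induced transcription factors, read 0.31 and 0.36 without passing (limma adjusted p = 0.103 and 0.107).

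Respiratory chain and ATP synthase subunits, which make ATP in mitochondria, lay mostly above 0, in 50 of 72 measured. Their median was 0.12 against −0.02 over all genes. All 6 that passed (8.33%, against 4.95% of all genes) were higher in MEC. With Agilent's processed signals 1 passed and without replicate 2 0 passed, against 191 and 90 of 10227 genes. Without replicate 2, 57 of the 72 lay above 0. Cox5a, a subunit of cytochrome c oxidase, read 11.35, 11.30 and 11.65 in MEC and 10.73, 10.75 and 10.65 in LEC (difference 0.72, SE 0.10, limma adjusted p = 0.012). Ndufs4 and Ndufs1, of complex I, were higher by 0.82 and 0.63, and Ndufb5, of the same complex, by 0.38. Atp5j2, of the ATP synthase, was higher by 0.57 and Uqcrb, of complex III, by 0.42. Direction depended on the scaling: under 75th percentile scaling 11 of 72 lay above 0, with a median of −0.30 against −0.11 over all genes. List calls were then 0 in MEC and 25 in LEC, against 112 and 2336 of 10227 genes. Cytosolic ribosomal proteins, also abundant, had 0 of 74 called here by limma, against 4.95% of all genes (26 above 0, median −0.08). Under that scaling 36 of the 74 were called higher in LEC, against 2336 of 10227 genes.

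Genes often used as references were not all level. Of 19 measured, 1 was called in each region (10.5%, against 4.95% of all genes). Pgk1 (phosphoglycerate kinase) was higher in MEC at 0.74 (limma adjusted p = 0.0277). Ldha (lactate dehydrogenase A) was higher in LEC at −0.85 (limma adjusted p = 0.00662), while another Ldha probe read 0.003. Actb, cytoplasmic actin, read 8.05, 7.88 and 8.44 in MEC and 8.18, 7.95 and 7.99 in LEC, which overlapped. Lysosomal and heparan sulfate genes, the pathway that Naglu belongs to, had 2 of 42 called (4.76%, against 4.95% of all genes). Ctsl, the protease cathepsin L, was higher in MEC at 0.86 (SE 0.12, limma adjusted p = 0.0145) with LEC replicate 1 left out for an outlier spot. Gpc3, a heparan sulfate proteoglycan of the cell surface, was higher in LEC at −0.62 (limma adjusted p = 0.00614) and well above background in 1 of 6 MEC readings. Of 17 matrix genes 2 passed (11.8%, against 4.95% of all genes), both higher in LEC. They were the proteoglycan neurocan, Ncan, at −0.63 and the metalloproteinase gene Mmp17 at −0.44 (limma adjusted p = 0.0373 and 0.0416).

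Most of the remaining leading genes belonged to no list. Plxdc1, a transmembrane protein with a plexin domain, read 8.44, 8.52 and 8.65 in MEC and 7.10, 6.74 and 7.10 in LEC (difference 1.56, SE 0.12, limma adjusted p = 0.00166). Fndc5, the membrane precursor of irisin, was 1.53 higher in MEC, and Slc24a2, a potassium-dependent sodium/calcium exchanger of neurons, 1.47. Nefl, the light neurofilament chain, was 1.28 higher and Cbr3, a carbonyl reductase, 1.29. These MEC genes were clear of LEC in every replicate. Kdm8, Klrb1c and Lnx1, at 1.43, 1.39 and 1.34, had more spread, with MEC replicate 2 highest and LEC replicate 1 lowest in each. Lnx1, a ubiquitin ligase that binds Numb, had other kept probes at −0.02 and −0.01.

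On the LEC side, Zcchc12, a zinc-finger coactivator in BMP signalling, read 7.32, 7.98 and 6.92 in MEC and 8.93, 9.08 and 9.10 in LEC. LEC replicates agreed closely and MEC replicates were spread over about 1 unit (difference −1.63, SE 0.23, limma adjusted p = 0.012). Myh7, the beta myosin heavy chain best known from heart and slow muscle, read 6.88, 6.78 and 6.79 in MEC and 8.36, 7.96 and 8.51 in LEC (difference −1.46, SE 0.13, limma adjusted p = 0.00261). Another Myh7 probe read −1.48. Vat1l was −1.37, with 6.86, 7.13 and 7.06 in MEC and 8.25, 8.51 and 8.41 in LEC. Mcm6, a subunit of the replicative helicase, read 6.67, 6.73 and 6.71 in MEC and 7.82, 7.67 and 7.90 in LEC. It had the tightest MEC values among these genes and differed by −1.09 (limma adjusted p = 0.00166). Fxyd6, a regulator of the sodium pump, and Fgfrl1, an FGF receptor without a kinase domain, were −1.11 and −1.08.

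**Figure D3:**
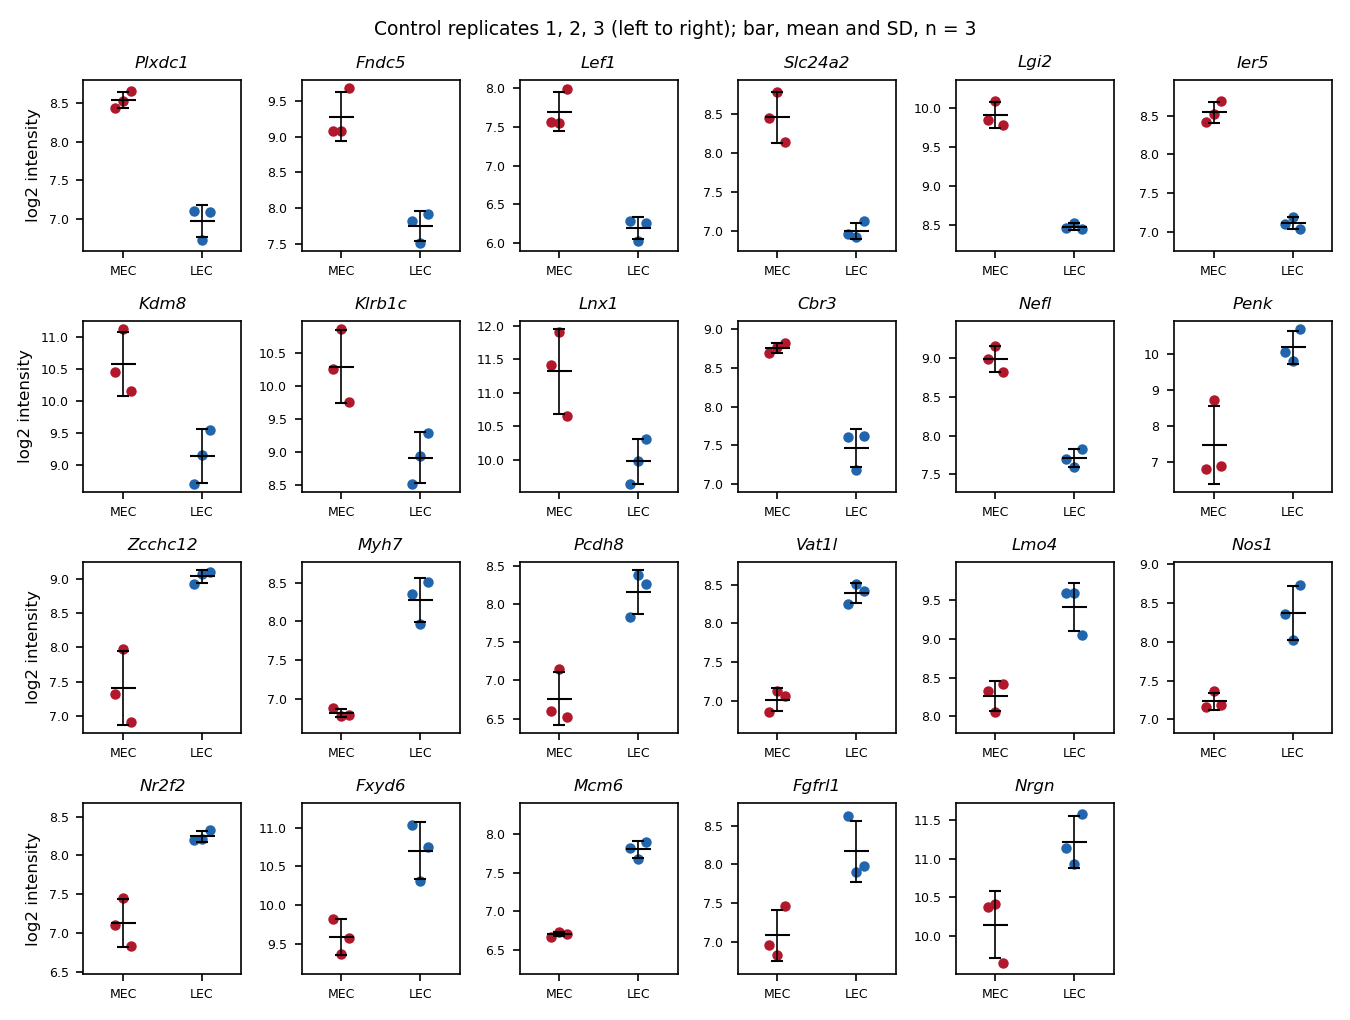
Control replicates 1, 2 and 3 (left to right) of MEC (red) and LEC (blue) for 23 of the 24 leading genes, as log2 intensity on y axes that differ in position; the bar is the mean and SD of n = 3. Penk shows a single high MEC value of 8.72, whereas Lgi2, Ier5 and Mcm6 have tight groups with a wide gap.

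Cell type markers were read beside these results because a laser cut can take in more than the chosen cell body. In such pooled RNA, fewer cells of a type and less RNA per cell cannot be told apart. Camk2a, the pyramidal cell kinase, was well above background in all 12 control readings, whereas Slc17a7 (the vesicular glutamate transporter VGLUT1) was so in 5 of 12 and Tbr1 in 4 of 12, below the filter. Summed intensity of the 11 measured excitatory markers was 5625 to 5677 in MEC and 6377 to 7775 in LEC, a MEC to LEC ratio of 0.824. These sums did not overlap (exact two-sided permutation p = 0.1, the smallest that 3 against 3 allows; adjusted over 8 lists 0.4). The gap rested on Nrgn: over the other 10 genes the sums were 4297 to 4832 in MEC and 4130 to 4722 in LEC, which overlapped (ratio 1.01). Called members of the list (27.3%, against 4.95% of all genes) were Neurod6, higher in MEC, and Nrgn and Gria1, higher in LEC.

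Oligodendrocyte markers, of the glia that make myelin, also had sums that did not overlap, at 1660 to 2161 in MEC and 1383 to 1538 in LEC over 13 measured genes (ratio 1.27, exact two-sided permutation p = 0.1, adjusted 0.4). Without 1 of these genes, over the other 12, the sums were 1213 to 1429 in MEC and 1268 to 1344 in LEC, and the regions overlapped. They also overlapped without Enpp2, a secreted lysophospholipase, at 1426 to 2063 and 1290 to 1439. Of the 13, limma called 2 in MEC and 1 in LEC (23.1%, against 4.95% of all genes). Mag, a myelin adhesion protein, was 0.37 higher in MEC (limma adjusted p = 0.0482; −0.04 under 75th percentile scaling). Mbp, myelin basic protein, was −1.03 at its brighter probe (limma adjusted p = 0.00614) and 1.12 at its other kept probe, so its direction is uncertain. Mog was well above background in 2 of 12 control readings. The part of oligodendrocyte RNA in the other differences was not tested.

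**Figure D4:**
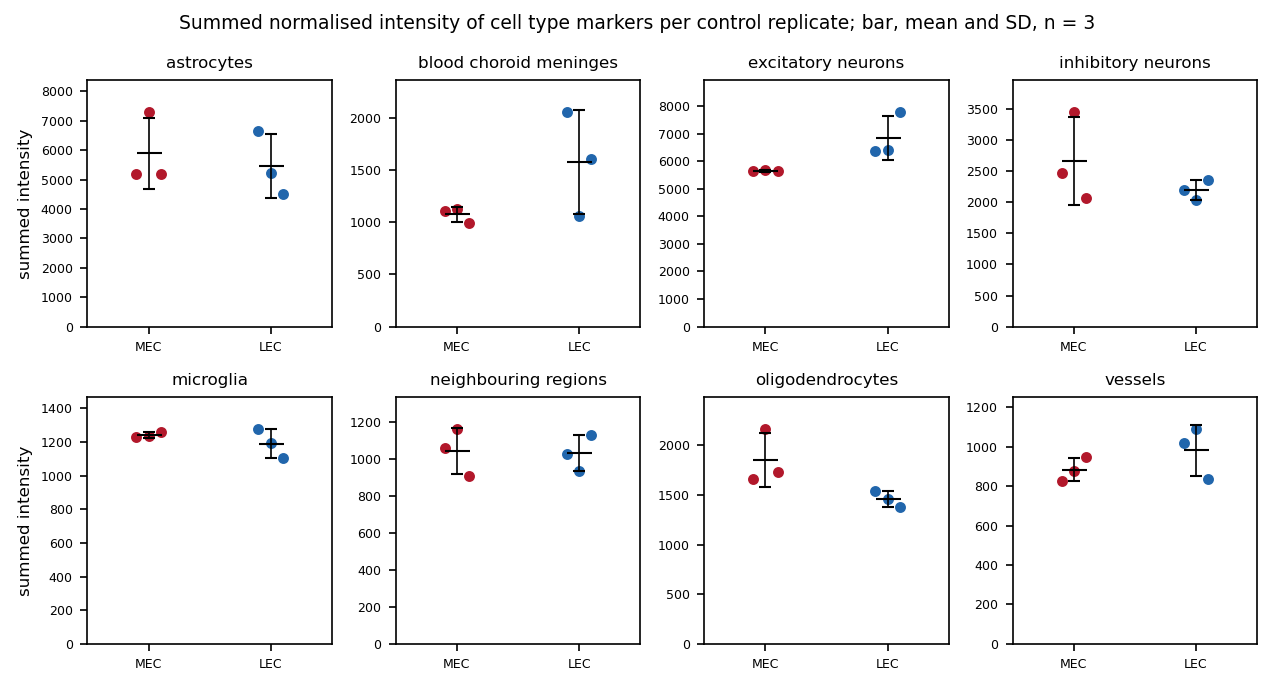
Summed normalised intensity (linear scale from 0) of the measured markers of 8 cell classes in each control replicate, MEC in red and LEC in blue, with mean and SD of n = 3. The sums separate by region for oligodendrocytes (1660 to 2161 in MEC over all 13 genes) and excitatory neurons (5625 to 5677 in MEC) and overlap for the other classes; single members decide this, as excitatory sums overlap without Nrgn and oligodendrocyte sums without either of 2 genes.

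Inhibitory neuron markers summed to 2069 to 3441 in MEC and 2025 to 2346 in LEC, which overlapped. Without Nos1 they were 1923 to 3277 and 1765 to 1922, which just separated. Of 15 measured, Nos1, the neuronal nitric oxide synthase of a sparse interneuron class, read 7.16, 7.36 and 7.19 in MEC and 8.36, 8.02 and 8.73 in LEC. It was higher in each LEC replicate (difference −1.13, SE 0.16, limma adjusted p = 0.0121). Pvalb, the parvalbumin of fast-spiking interneurons, read 6.54, 6.63 and 6.69 in MEC and 5.99, 5.87 and 6.11 in LEC. MEC was higher (difference 0.63, SE 0.09, limma adjusted p = 0.0111), and in LEC 2 of 6 readings were well above background. Gad1, which makes GABA, read 0.32, and Sst, somatostatin, −0.69, without passing (limma adjusted p = 0.0994 and 0.248).

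Of the astrocyte (15), microglia (12), vessel (9) and blood, choroid plexus or meninges (8) markers measured, 0 passed limma, against 4.95% of all genes. In lists this short, 0 calls do not show equal content. Under 75th percentile scaling 1 astrocyte, 1 microglia and 2 vessel markers were called higher in LEC, against 2336 of all 10227 genes. All 4 sums overlapped between regions. Astrocyte sums were 5190 to 7290 in MEC and 4499 to 6649 in LEC, and blood, choroid plexus and meninges sums 993 to 1124 and 1058 to 2052. Without Ptgds, the prostaglandin D synthase gene, the latter were 769 to 858 and 949 to 1273, which did not overlap. Glul, the glutamine synthetase of astrocytes, read 10.35, 10.75 and 10.08 in MEC and 9.90, 9.07 and 9.08 in LEC. It did not overlap but missed the threshold (difference 1.04, limma adjusted p = 0.0525), and its other kept probe read −0.10.

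Mutant channels of the same arrays gave a second reading of the region difference, under the same scan days. The sign was the same as in controls for 505 of the 506 genes. These genes were selected on their control values, and both channels share arrays and normalisation, so the count is a description. In mutant channels Penk read −2.37, Lgi2 1.92, Lef1 1.43 and Ier5 0.99. Testing the difference of the region effect between genotypes, through the ratios of mutant over control, called 0 of 10227 genes with limma, against 67 at an unadjusted p under 0.05 (0.655% of genes; smallest adjusted p = 0.99982). Evenly spread p-values would put 5% there, so this test ran conservative, and its 0 does not show that the region effects were alike. With the dyes of replicate 2 as labelled, 838 of 9996 genes had an unadjusted p under 0.05 and 0 passed. Among the 24 leading genes the widest gap was that of Myh7, at −2.44 in mutants and −1.46 in controls. Vat1l, at −1.99 and −1.37, had the smallest unadjusted p of them in limma (0.0224).

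**Figure D5:**
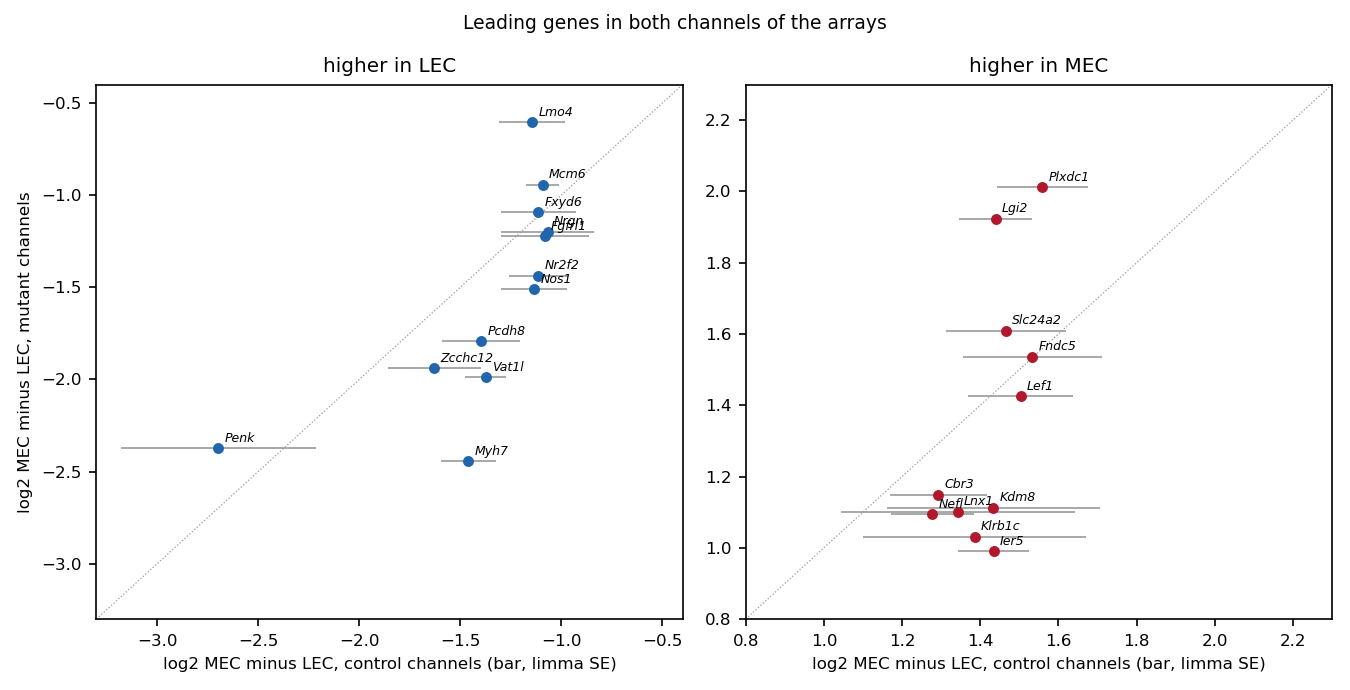
Region difference of 23 of the 24 leading genes in control channels (x axis, bar is limma's SE) and in mutant channels (y axis), both log2 MEC minus LEC, with genes higher in LEC on the left and in MEC on the right; the dotted line marks equality. All 23 have the same sign in both channels, and Myh7 (−1.46 and −2.44) and Lmo4 (−1.15 and −0.60) are among those off the line; both channels share arrays and scan days, so the plot is a description.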

How the data were processed

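Neuronal RNA of MEC and LEC was hybridised to 12 Agilent dual-dye arrays, 6 per region. Per the file headers, Agilent Feature Extraction 9.5.1.1 made the scanner files (8.5.1.1 per the submitters' processing notes). The deposited scanner files hold intensity values per spot and dye, with no background subtracted, the software's own processed intensity values, and log10 ratios (Cy5 over Cy3). The authors' deposited value table holds log2 ratios for 41548 spots, and its direction and centring are not stated. It served only to match scanner files and dyes: over 9166 bright spots each column matched 1 array (correlation 0.9952 to 0.9993 in size, next best at most 0.6565), which moved 5 LEC files and opposed the labelled dyes in 4 arrays, those of replicate 2.

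Analysis used R 4.3.3, limma 3.58.1 and the data.table package (1.17.8). Background was corrected by normexp (offset 50), followed by loess within arrays and quantile normalisation over all 24 channels. Outlier spots were dropped, which left 140 genes without a replicate. Probes well above background in at least 4 of 6 control readings of a region were kept (12071 of 41174). A gene took its brightest probe, giving 10227 genes, of which 9014 carried a name. A RefSeq table (GRCm38.p6) named 23477 probes from accessions, 6678 from current symbols and 2891 from older ones, and 8128 had no name. Probe coordinates are mm8. Limma (lmFit, eBayes) compared 3 MEC with 3 LEC means without a block, adjusted by Benjamini-Hochberg, two-sided. Its p-values set the region difference against the spread between replicates within a region. That spread holds no variation between scan days. The number of arrays limits the precision. The fit was tested on simulated data.

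Named genes were the 12 largest and 12 smallest differences among named, called and non-overlapping genes, and in each of 28 lists up to 4 members of smallest p on each side. Results of some of these genes are not reported here. Members and lists were chosen with earlier results of these data known. Alternatives covered background, normalisation, filters, probes, dyes, file and dye assignment, left-out replicates and blocks.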

Additional observations from a re-analysis of the deposited data

How the results depend on the processing

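The count of 506 called genes (264 higher in MEC, 242 in LEC, 48 at least 2-fold) stayed within 1.5 times with no background correction, Aquantile scaling, 6 of 6 readings required, the mean of kept probes and Cy3 readings only, and under both fits added after the data were seen (a filter and a background from negative control spots). Leaving out a replicate gave 38 to 1108 calls, with 24 to 538 higher in MEC, 14 to 570 in LEC and 20 to 123 at least 2-fold. It fell to 191 with Agilent's processed signals (94 in MEC, 97 in LEC, 167 at least 2-fold), 200 without loess (99 and 101), 204 with quantiles over control channels alone (99 and 105), 196 with Cy5 readings (97 and 99), 296 of 27683 genes with no filter on dim probes (158 and 138, 31 at least 2-fold) and 90 without replicate 2 (29 and 61). It was 2448 with 75th percentile scaling (112 and 2336, 203 at least 2-fold), 2774 with both genotypes averaged (1197 and 1577), 1131 with files and dyes as labelled (462 and 669) and 1249 with all 12 arrays and replicate as a random block (622 and 627). With only replicate 2 turned to its labelled dyes, 389 were higher in LEC. The higher-in-MEC share of calls was 52.2%, but 40.8% with files and dyes as labelled, 32.2% without replicate 2 and 63.2% without MEC replicate 1. Adding the replicate number as a block gave 63 calls (31 and 32, 29 at least 2-fold). Same-numbered MEC and LEC replicates correlated at −0.168, −0.139 and −0.401 in their deviations, so the numbers were not taken to pair the samples; whether they share animals is not known. The cause of these changes was not tested. Slide as a block was not run, since each array had a slide of its own.

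Of the 24 leading genes, 0 changed sign in any of 25 settings, and 11 passed in every setting: Cbr3, Fndc5, Ier5, Lef1, Lgi2, Mcm6, Myh7, Nefl, Plxdc1, Slc24a2 and Vat1l. Over all genes and settings 107 of 600 values no longer passed. Lnx1 and Nrgn lost their call in 16 and 14 settings. Of 61 called list members 57 kept their sign in each setting and 9 passed in each. The region by genotype count was 0 in each of 4 settings, with 46 (replicate block) to 838 genes (replicate 2 dyes as labelled) at an unadjusted p under 0.05. The excitatory marker ratio turned from 0.824 to 1.009 without Nrgn, a check added after the data were seen. Signal over background limits Gpc3, Pvalb, Kcnf1, Efnb1, Ephb1 and Kcna5, each well above background in at most 3 of 6 readings of 1 region.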

Other observations

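A few further values were singled out after the results were seen. Grn, the progranulin gene, read 7.58 to 8.35 in MEC and 8.31 to 10.71 in LEC, a difference of −1.52 with overlapping groups that did not pass (limma adjusted p = 0.13). Arid5b, a DNA-binding protein gene, read 9.41, 9.77 and 9.46 in MEC controls and 8.68, 8.73 and 8.82 in LEC controls (difference 0.80, limma adjusted p = 0.0103). Tfam, which packages mitochondrial DNA, was higher in MEC controls too, at 0.74 (limma adjusted p = 0.0121). Whether these control values bear on any mutant to control ratio in MEC was not tested.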
